A study of Mus musculus with 16 samples.

Results

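The alpha, beta and gamma crystallins are the water-soluble proteins that fill the fibre cells of the eye lens. The report covers 10 of their genes, Cryaa, Cryba1, Cryba2, Cryba4, Crybb1, Crybb2, Crybb3, Crygb, Crygd and Crygs, among 18193 genes that had at least 1 probe set carrying a single gene symbol. A gene was included by its symbol alone, and each of the 10 had exactly 1 such probe set. All 10 passed the filter on low values, which asked for a log2 level over 4, or 16 on the linear scale, on 2 or more of the 16 arrays. A further probe set that is shared by 2 gamma crystallins was left out.

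RNA of mouse neural retina was hybridised to 16 Affymetrix arrays. Mice without Nxnl1 (Nxnl1-/-, below KO) and their wild type (Nxnl1+/+, below WT), all of the albino BALB/c strain, aged 11 to 16 weeks and of both sexes, were raised in cyclic light of 50 lux. They spent 16 h in darkness, 1 h under white fluorescent light of 50, 2500 or 5000 lux and 24 h in darkness before the retina was dissected away from the retinal pigment epithelium. The KO groups held 3 arrays each for 50 and 2500 lux and 2 for 5000 lux, and the WT groups held 2 for 50 lux and 3 each for 2500 and 5000 lux. Nxnl1 encodes a rod-derived factor of the thioredoxin family on which cones depend for survival. The labels name biological replicates without saying whether an array held 1 animal or several, so the p-values measure the spread between these arrays, part of which may be technical.

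Alpha crystallins are small heat shock proteins that hold unfolding proteins in solution, whereas beta and gamma crystallins form a separate superfamily of compact, stable proteins that give the lens its refractive index. Lens fibre cells switch these genes on together as they differentiate, under transcription factors that include Maf, Pax6, Sox and Prox1. Several crystallins are also made outside the lens, and crystallin transcripts have been described in retina, where their levels are known to change after light injury.

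The sequences just upstream of 6 of the genes are shown, those with a TATA-like string beginning 23 to 30 bases before the start. Cryba2, Cryba4, Crybb2 and Crybb3 are not shown. They are the 120 bases before the annotated start in RefSeq (GRCm38.p6), written along the strand of the gene. Capitals mark TGCTGAC, the core of the Maf response element, and the TATA-like strings TATAAA and TATATA.
Cryaa, chr17:31677811-31677930, plus strand: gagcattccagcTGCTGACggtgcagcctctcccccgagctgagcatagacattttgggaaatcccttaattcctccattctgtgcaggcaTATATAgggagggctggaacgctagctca
Cryba1, chr11:77725294-77725413, minus strand: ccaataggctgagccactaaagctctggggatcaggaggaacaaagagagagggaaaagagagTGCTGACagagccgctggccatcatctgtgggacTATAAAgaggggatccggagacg
Crybb1, chr5:112255700-112255819, plus strand: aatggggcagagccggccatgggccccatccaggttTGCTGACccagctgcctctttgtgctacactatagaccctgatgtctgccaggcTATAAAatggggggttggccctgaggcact
Crygb, chr1:65082291-65082410, minus strand: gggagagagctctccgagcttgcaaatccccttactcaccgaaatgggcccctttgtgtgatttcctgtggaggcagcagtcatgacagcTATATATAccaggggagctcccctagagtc
Crygd, chr1:65063441-65063560, minus strand: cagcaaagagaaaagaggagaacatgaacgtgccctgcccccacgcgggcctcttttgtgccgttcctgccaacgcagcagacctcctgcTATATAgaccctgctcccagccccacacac
Crygs, chr16:22811411-22811530, minus strand: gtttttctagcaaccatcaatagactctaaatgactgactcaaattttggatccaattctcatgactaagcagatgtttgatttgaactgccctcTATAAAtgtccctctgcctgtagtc

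The 3 strings were searched on both strands of a window of 250 bases before and 50 bases after each start, and all 10 genes had such a window. TGCTGAC was found in 4 of the 10 windows, those of Cryaa, Cryba1, Cryba4 and Crybb1, and in 4.67% of all 32851 windows. TATAAA was found in the windows of 4 of the 10 genes and in 13.6% of all windows. TATATA was found in those of Cryaa, Crygb and Crygd, 3 of 10, and in 5.67% of all windows; the pair of matches in Crygb overlap each other. At least 1 of the TATA-like strings lay in 7 of the 10 windows and in 17.1% of all windows. In 6 genes, those printed above, it began 23 to 30 bases before the start, and in Cryba2 it began 3 bases before it. Crybb2 and Crybb3 had none of the 3 strings. All these are matches of letters and were not tested for binding. Their part in the levels on the arrays was not tested either.

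Nxnl1 itself followed the labels. Its log2 level was 2.24 on all 3 KO arrays at 50 lux, 2.45 ± 0.36 (SD, n = 3) at 2500 lux and 2.57 ± 0.50 (SD, n = 2) at 5000 lux, against 7.57 ± 0.06 (SD, n = 2), 6.44 ± 0.53 (SD, n = 3) and 6.06 ± 0.39 (SD, n = 3) on the WT arrays. One array stood apart from the rest of its group. On WT 5000 lux replicate 2 the 10 crystallins averaged a log2 level of 12.69, against 2.57 and 3.49 on replicates 1 and 3 of that group, and their summed intensity made up 0.64% of the whole array, against 0.000475% to 0.0605% on the other 15 arrays. That array also enters the pooled spread behind every standard error and p-value below, so the number of crystallins at an unadjusted p below 0.05 and the lowest adjusted p are given with and without it in each comparison. Neither the labels nor the values used here name a processing batch.

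Within some groups crystallin RNA was high on 1 array and far lower on the rest. These groups were KO at 2500 and 5000 lux and WT at 5000 lux. The mean log2 level of the 10 genes was 8.91, 7.12 and 6.17 on the KO arrays at 50 lux, 3.77, 8.17 and 3.85 at 2500 lux, and 3.15 and 8.26 at 5000 lux. On the WT arrays it was 3.78 and 2.73 at 50 lux, 2.77, 2.58 and 2.61 at 2500 lux, and 2.57, 12.69 and 3.49 at 5000 lux. Here and below, values of 1 group follow the replicate numbers. All 10 genes exceeded log2 4 on KO 50 lux replicates 1 and 2, KO 2500 lux replicate 2, KO 5000 lux replicate 2 and WT 5000 lux replicate 2. KO 50 lux replicate 3 had 7 of the 10 above that level, and no array of WT retinas at 2500 lux had any. In this bulk tissue, more cells of a type and more RNA per cell cannot be told apart.

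**Figure D1:**
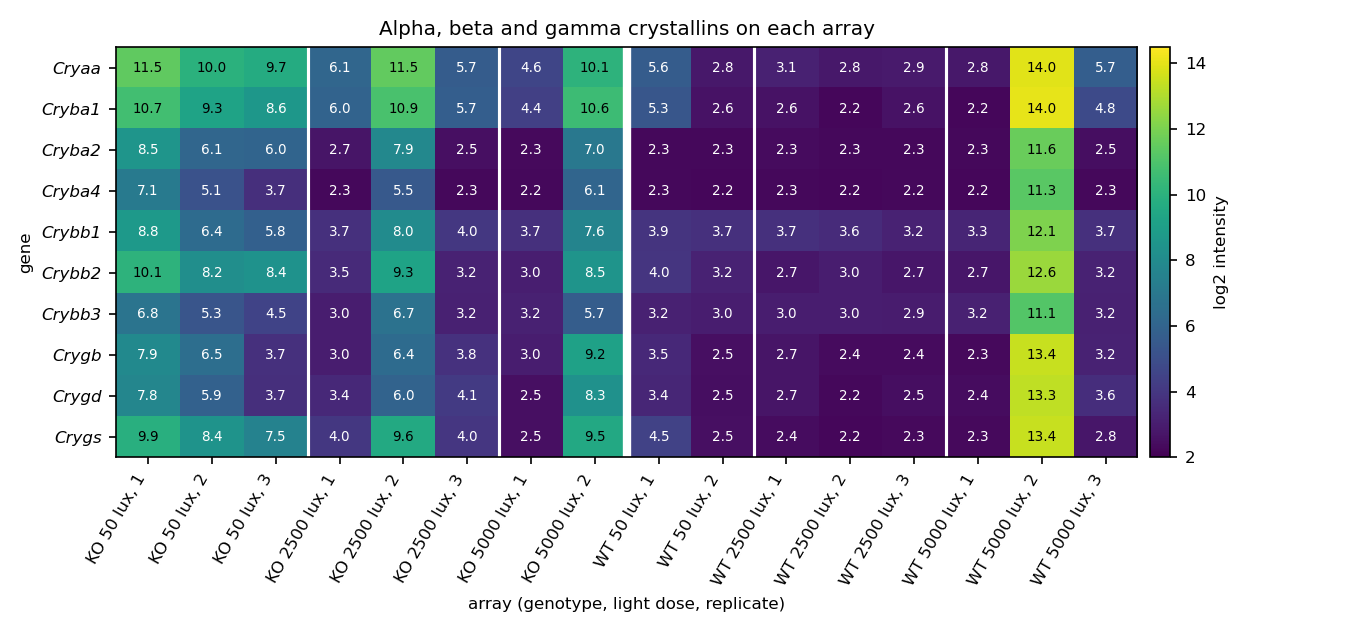
Log2 intensity of the 10 crystallins (rows) on each of the 16 arrays (columns, KO left and WT right, light dose rising within each genotype); colour and printed number both give the level. WT 5000 lux replicate 2 holds the highest value in every row, and KO 50 lux replicate 1, KO 2500 lux replicate 2 and KO 5000 lux replicate 2 fill ranks 2 to 5 together with KO 50 lux replicate 2 in every row but that of Crybb2.

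Cryaa encodes alphaA-crystallin, the lens-enriched alpha crystallin. It stood at log2 11.46, 10.001 and 9.70 in KO retinas at 50 lux, at 6.11, 11.51 and 5.65 at 2500 lux, and at 4.60 and 10.07 at 5000 lux. In WT retinas it stood at 5.62 and 2.81 at 50 lux, at 3.15, 2.81 and 2.91 at 2500 lux, and at 2.81, 13.96 and 5.72 at 5000 lux. Cryaa was thus above log2 4 on all 8 KO arrays and on 3 of 8 WT arrays.

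Among the acidic beta crystallins, Cryba1 encodes the betaA3/A1 chains, which are also made in astrocytes and pigment epithelium. Its log2 level was 10.71, 9.26 and 8.64 in KO retinas at 50 lux, 5.96, 10.92 and 5.75 at 2500 lux, and 4.36 and 10.59 at 5000 lux. WT retinas had 5.35 and 2.62 at 50 lux, 2.62, 2.21 and 2.62 at 2500 lux, and 2.21, 14.03 and 4.80 at 5000 lux. Like Cryaa, it exceeded log2 4 on 8 of 8 KO arrays and 3 of 8 WT arrays. Cryba2, the betaA2 chain, reached 8.53, 6.14 and 6.03 in KO retinas at 50 lux, 7.85 on KO 2500 lux replicate 2 and 7.02 on KO 5000 lux replicate 2, and lay between 2.34 and 2.70 on the other KO arrays. On WT arrays it was 11.64 on 5000 lux replicate 2 and between 2.26 and 2.48 elsewhere. It exceeded log2 4 on 5 of 8 KO arrays and 1 of 8 WT arrays. Cryba4, the betaA4 chain, stood at 7.13, 5.13 and 3.66 in KO retinas at 50 lux and ran from 2.25 to 6.06 on KO arrays at the brighter doses. On WT arrays it was 11.30 on 5000 lux replicate 2 and at most 2.26 on the other 7. Cryba4 exceeded log2 4 on 4 of 8 KO arrays and on that WT array.

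The basic beta crystallins had the same high arrays. Crybb2, a major beta crystallin of the adult lens that is also found in retina, stood at 10.09, 8.16 and 8.37 in KO retinas at 50 lux, at 3.47, 9.27 and 3.18 at 2500 lux, and at 3.04 and 8.46 at 5000 lux. WT retinas showed Crybb2 at 3.95 and 3.18 at 50 lux, at 2.75, 3.02 and 2.75 at 2500 lux, and at 2.75, 12.61 and 3.18 at 5000 lux. Its 6 highest arrays were separated from the other 10 by a gap of 4.21 on the log2 scale. Crybb1 had 8.77, 6.35 and 5.83 in KO retinas at 50 lux and 3.88 and 3.72 in WT retinas at that dose. Crybb3 had 6.83, 5.30 and 4.54 in KO retinas at 50 lux and 3.17 and 2.98 in WT retinas. On WT 5000 lux replicate 2 Crybb1 reached 12.06 and Crybb3 11.13, and both stayed below log2 4 on the other 7 WT arrays.

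Gamma crystallins pack most densely in the core of the lens, and Crygs encodes gammaS, the gamma crystallin that the adult lens cortex goes on making. Crygs stood at 9.91, 8.44 and 7.52 in KO retinas at 50 lux, at 4.04, 9.60 and 3.97 at 2500 lux, and at 2.53 and 9.53 at 5000 lux. The WT levels of Crygs were 4.47 and 2.53 at 50 lux, 2.40, 2.21 and 2.31 at 2500 lux, and 2.31, 13.43 and 2.77 at 5000 lux. Its high arrays were those of the beta crystallins. Crygb had 7.94, 6.52 and 3.74 in KO retinas at 50 lux, 3.01, 6.38 and 3.81 at 2500 lux, and 3.01 and 9.17 at 5000 lux. On WT arrays Crygb had 3.46 and 2.49 at 50 lux, 2.72, 2.35 and 2.35 at 2500 lux, and 2.29, 13.44 and 3.20 at 5000 lux. Crygd moved like Crygb, with 7.75, 5.88 and 3.69 in KO retinas at 50 lux, 8.35 on KO 5000 lux replicate 2 and 13.28 on WT 5000 lux replicate 2. Crygb and Crygd were the genes for which KO 5000 lux replicate 2 held the second highest level. For Cryaa and Cryba1 that was KO 2500 lux replicate 2, and for the other 6 genes KO 50 lux replicate 1.

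The order of the arrays was therefore close to common without being identical. WT 5000 lux replicate 2 ranked first for all 10 genes. KO 50 lux replicates 1 and 2, KO 2500 lux replicate 2 and KO 5000 lux replicate 2 were among the 6 highest for all 10, and KO 50 lux replicate 3 for 8. The gap between WT 5000 lux replicate 2 and KO 50 lux replicate 1 differed by gene. It was 5.51 for Crygb and 5.53 for Crygd on the log2 scale, against 2.51 for Cryaa and 2.53 for Crybb2, with the other 6 genes between 3.11 and 4.30.

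Across all 16 arrays Pearson's r between pairs of the 10 genes ran from 0.874 to 0.995 over 45 pairs, with a median of 0.955. Without WT 5000 lux replicate 2 it ran from 0.862 to 0.992, and over the 8 KO arrays alone from 0.769 to 0.997. Spearman's rho ran from 0.815 to 0.979. These describe genes measured on the same arrays, so the 10 genes are not 10 independent observations of an array.

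Spread between arrays of 1 group set the crystallins apart from nearly all other probe sets. Their standard deviation within groups, pooled over the 6 groups, was 2.39 to 3.60 on the log2 scale, at ranks 2 to 19 of 23320 probe sets, and the median of all was 0.203 with a 95th percentile of 0.469. Without WT 5000 lux replicate 2 it was 1.28 to 2.36, at ranks 10 to 30. Probe sets of the sex-linked genes Xist, Eif2s3y and Uty were also among the 19 most variable; their part in these results was not tested.

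**Figure D2:**
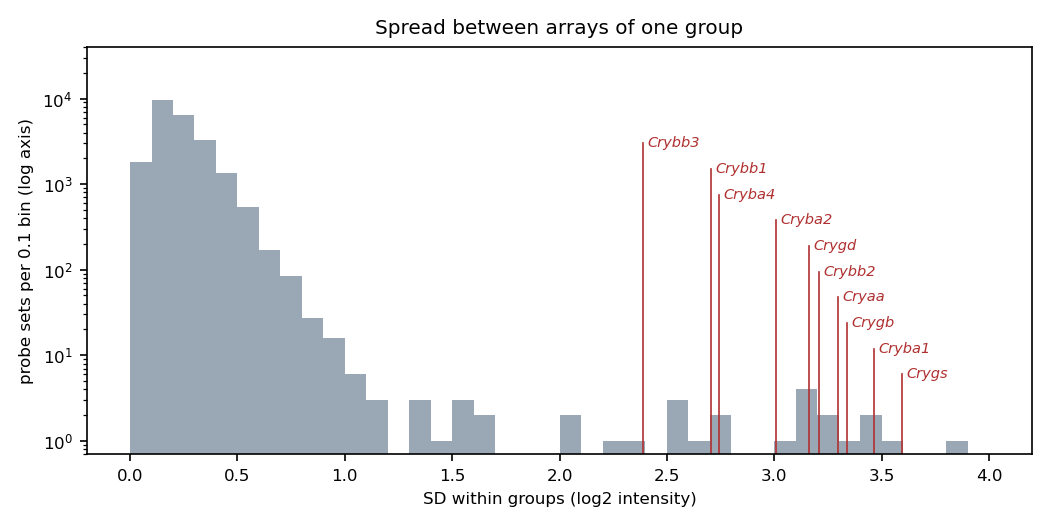
Histogram of the standard deviation within groups (x axis, log2 intensity, in bins of 0.1) over all 23320 probe sets tested (y axis, number of probe sets, log scale). Red lines mark the 10 crystallins, their height only separating the names; all lie between 2.39 and 3.60, far to the right of the median of 0.203.

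The first comparison asked whether retinas without Nxnl1 differ from WT retinas at the light level in which the mice were raised. At 50 lux each of the 10 crystallins was higher on every KO array than on every WT array, as were 21.4% of all probe sets tested, while 12.5% were lower. The log2 difference, KO minus WT, ran from 2.48 (Crybb3, SE 1.90) to 6.17 (Cryaa, SE 2.62), with a median of 3.90 where the median of all probe sets was 0.04. Cryaa averaged 10.39 ± 0.94 in KO retinas and 4.21 ± 1.99 in WT retinas (SD, n = 3 and 2). Cryba1 differed by 5.56 (SE 2.75), Crybb2 by 5.30 (SE 2.55), Crygs by 5.12 (SE 2.86) and Cryba2 by 4.63 (SE 2.39). Crybb1 differed by 3.18 (SE 2.15), Crygb by 3.09 (SE 2.66), Cryba4 by 3.06 (SE 2.18) and Crygd by 2.86 (SE 2.52). WT levels of several genes lay below log2 4, as did KO 50 lux replicate 3 for Crygb (3.74), Crygd (3.69) and Cryba4 (3.66). With levels raised to that floor, Crybb2 was at least 29.3-fold higher in KO retinas, Crybb1 at least 7.90-fold and Cryba2 at least 7.47-fold. These bounds were 19.2-fold, 4.26-fold and 4.24-fold without KO 50 lux replicate 1. The bounds for Crygb, Crygd, Crybb3 and Cryba4 were lower, at 4.44-fold, 3.68-fold, 2.94-fold and 2.67-fold. Without that replicate they were 2.39-fold, 1.92-fold, 1.89-fold and 1.48-fold.

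None of the 10 passed limma's test after Benjamini-Hochberg adjustment over all 23320 probe sets (threshold 0.05), where 0.326% of all probe sets did. The lowest adjusted p was 0.31, for Cryaa, which alone of the 10 had an unadjusted p below 0.05 (0.035). With all arrays, 3396 of all 23320 probe sets had an unadjusted p below 0.05. No such count over all probe sets is given for the other fits named here. With WT 5000 lux replicate 2 left out, the differences stayed as they were, their standard errors were 1.01 to 1.85 in place of 1.90 to 2.86, and 8 of the 10 genes had an unadjusted p below 0.05 in limma. These were Cryaa (0.0045), Crybb2 (0.0079), Cryba1 (0.0085), Cryba2 (0.0097), Crygs (0.017), Cryba4 (0.023), Crybb3 (0.029) and Crybb1 (0.03), and the lowest adjusted p was 0.19. The number was 3 without WT 5000 lux replicate 1, 2 without KO 2500 lux replicate 2, and 0 without KO 50 lux replicate 1, KO 50 lux replicate 2 or WT 50 lux replicate 2. It was 8 with only the 50 lux arrays fitted. After adjustment 0 of the 10 passed in each of the 27 alternative settings as well, and the lowest adjusted p of any of the 10 under any of them was 0.17. Leaving out KO 50 lux replicate 1 gave a median difference of 3.05, and leaving out KO 50 lux replicate 3 gave 4.66.

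At 2500 lux the difference between KO and WT retinas rested largely on 1 KO array. Of the 10 genes, 7 were higher on every KO array than on every WT array, as were 4.57% of all probe sets (6.61% were lower), and Cryba4, Crybb1 and Crybb3 overlapped. The median log2 difference was 2.05, from 1.10 to 5.06. Cryba1 averaged 7.54 ± 2.93 in KO retinas and 2.48 ± 0.24 in WT retinas (SD, n = 3 each), and Cryaa 7.76 ± 3.26 in KO retinas and 2.95 ± 0.17 in WT retinas. With WT levels raised to log2 4, Cryaa was at least 13.5-fold and Cryba1 at least 11.6-fold higher in KO retinas, and without KO 2500 lux replicate 2 at least 3.69-fold and 3.61-fold. Leaving out KO 2500 lux replicate 1 gave 23.9-fold and 20.1-fold, and leaving out replicate 3 gave 28.0-fold and 21.7-fold. For Cryba2, Crybb2, Crygb, Crygd and Crygs the lowest KO array was itself below log2 4, at 2.52, 3.18, 3.01, 3.42 and 3.97. Their bounds were 2.44-fold, 3.38-fold, 1.73-fold, 1.63-fold and 3.68-fold, and 1.0-fold to 1.05-fold without KO 2500 lux replicate 2. No crystallin passed in limma, with all 16 arrays (lowest adjusted p = 0.90) or in any of the 27 alternatives, against 0.0943% of all probe sets. At an unadjusted p below 0.05 there were 0 of 10 with all arrays, against 1303 of all 23320 probe sets. Without WT 5000 lux replicate 2 there were Cryba1 (0.0076) and Cryaa (0.01) in limma, and the lowest adjusted p was 0.60. There were also 2 without WT 5000 lux replicate 1, 1 without KO 2500 lux replicate 3 and 3 with only the 2500 lux arrays fitted. Without KO 2500 lux replicate 2 the median difference was 0.71.

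At 5000 lux the groups overlapped for all 10 genes, while 6.29% of all probe sets were higher and 5.67% lower on every KO array than on every WT array. The median log2 difference, KO minus WT, was -0.55, from -1.40 to 0.46. Without WT 5000 lux replicate 2 it was 2.60, in the direction seen at the lower doses. Without KO 5000 lux replicate 1 it was 2.09, and without KO 5000 lux replicate 2 it was -3.07. No crystallin passed with all 16 arrays or in any alternative (limma, lowest adjusted p = 1.0 with and without WT 5000 lux replicate 2, 0 of 10 at an unadjusted p below 0.05 in both), against 0.00429% of all probe sets. Of all 23320 probe sets, 540 had an unadjusted p below 0.05 with all arrays. With 2 KO arrays at 3.15 and 8.26 and 3 WT arrays at 2.57, 12.69 and 3.49 on average over the 10 genes, the groups at this dose gave no settled direction.

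The next comparisons asked how bright light changed the retina of each genotype. In KO retinas the group mean after bright light lay below that after 50 lux for 10 of 10 crystallins at 2500 lux and for 9 of 10 at 5000 lux, but the groups overlapped for all 10 at both doses. Of all probe sets, 21.3% at 2500 lux and 20.9% at 5000 lux were lower on every bright-light array than on every 50 lux array, and 16.8% and 15.7% were higher. At 2500 lux the median log2 change was -1.98, from -3.56 to -1.26. Crybb2 averaged 5.31 ± 3.44 at 2500 lux and 8.87 ± 1.06 at 50 lux (SD, n = 3 each), a difference of -3.56 on the log2 scale (SE 2.28, adjusted p = 0.30 in limma), and Crygs differed by -2.75 (SE 2.56, adjusted p = 0.49 in limma). At 5000 lux the median change was -1.69, from -3.12 to 0.02, with the lowest adjusted p at 0.44. None of the 10 passed at either dose in limma, against 19.3% of all probe sets at 2500 lux and 11.4% at 5000 lux. With all arrays none of the 10 had an unadjusted p below 0.05. Of all 23320 probe sets, 7569 at 2500 lux and 7008 at 5000 lux had an unadjusted p below 0.05. Crybb2 had one of 0.034 at 2500 lux without WT 5000 lux replicate 2 (adjusted p = 0.12 in limma), and 1 gene had one without KO 2500 lux replicate 2; at 5000 lux there were 0 without WT 5000 lux replicate 2 (lowest adjusted p = 0.24). The 27 alternatives also called 0 at both doses after adjustment. KO 2500 lux replicate 2 and KO 5000 lux replicate 2 each lay, on average over the 10 genes, within the range of the 50 lux group. The median change at 2500 lux was -3.40 without KO 2500 lux replicate 2, and that at 5000 lux was -3.91 without KO 5000 lux replicate 2. Without KO 5000 lux replicate 1 the change at 5000 lux turned to 0.70. Without KO 50 lux replicate 1 the median changes were -1.23 at 2500 lux and -0.95 at 5000 lux.

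In WT retinas at 2500 lux the crystallins lay at or near their lowest levels, and the median log2 change against 50 lux was -0.47, from -1.50 to 0.02. Crybb2 and Crygs were lower on every 2500 lux array than on both 50 lux arrays, 2 of 10 genes, as were 19.5% of all probe sets; none of the 10 was higher on every 2500 lux array, as 22.3% of all were. The change for Crygs was -1.19 (SE 2.86, adjusted p = 0.86 in limma) and for Crybb2 -0.73 (SE 2.55, adjusted p = 0.91 in limma), and neither passed. WT 50 lux replicate 1, with 3 of the 10 genes above log2 4, moved these values, since without it the median change was -0.01, and without WT 50 lux replicate 2 it was -0.93. At 5000 lux the median change was 3.02, from 2.55 to 3.54, with overlapping groups for all 10 genes, while 21.9% of all probe sets were higher and 20.8% lower on every 5000 lux array than on both 50 lux arrays. Crygd averaged 6.45 ± 5.95 at 5000 lux (SD, n = 3) and 2.91 ± 0.63 at 50 lux (SD, n = 2), and Cryaa 7.50 ± 5.78 at 5000 lux and 4.21 ± 1.99 at 50 lux. Without WT 5000 lux replicate 2 the median change at 5000 lux was -0.12. None of the 10 passed at either dose in limma or in any of the 27 alternatives, against 11.8% of all probe sets at 2500 lux and 10.5% at 5000 lux. None had an unadjusted p below 0.05 with all arrays, against 5870 of all 23320 probe sets at 2500 lux and 5417 at 5000 lux. None had one without WT 5000 lux replicate 2 either. The lowest adjusted p at 2500 and 5000 lux was 0.81 and 0.44 with all arrays in limma, and 0.68 and 0.86 without that array. At 5000 lux 2 genes had an unadjusted p below 0.05 without WT 5000 lux replicate 1. At 2500 lux 1 gene did with only the arrays of those groups fitted.

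The test of the difference itself, the interaction of genotype with light, called none of the 10 genes either. At 2500 lux the light response in KO retinas minus that in WT retinas had a median of -1.40 over the 10 genes (lowest adjusted p = 0.80 in limma, against 0.0472% of all probe sets called). At 5000 lux that median was -4.63, and -1.40 without WT 5000 lux replicate 2 (lowest adjusted p = 0.65 with all 16 arrays, against 0.0257% called). Of all 23320 probe sets, 2129 at 2500 lux and 1908 at 5000 lux had an unadjusted p below 0.05 with all arrays. None of the 10 genes had one at either dose, with all arrays or without WT 5000 lux replicate 2 (lowest adjusted p then 0.71 and 0.68). At 5000 lux 1 gene did without WT 5000 lux replicate 1 and 1 without KO 5000 lux replicate 2. After adjustment the 27 alternatives gave 0. The 2 interactions share their 50 lux arrays.

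**Figure D3:**
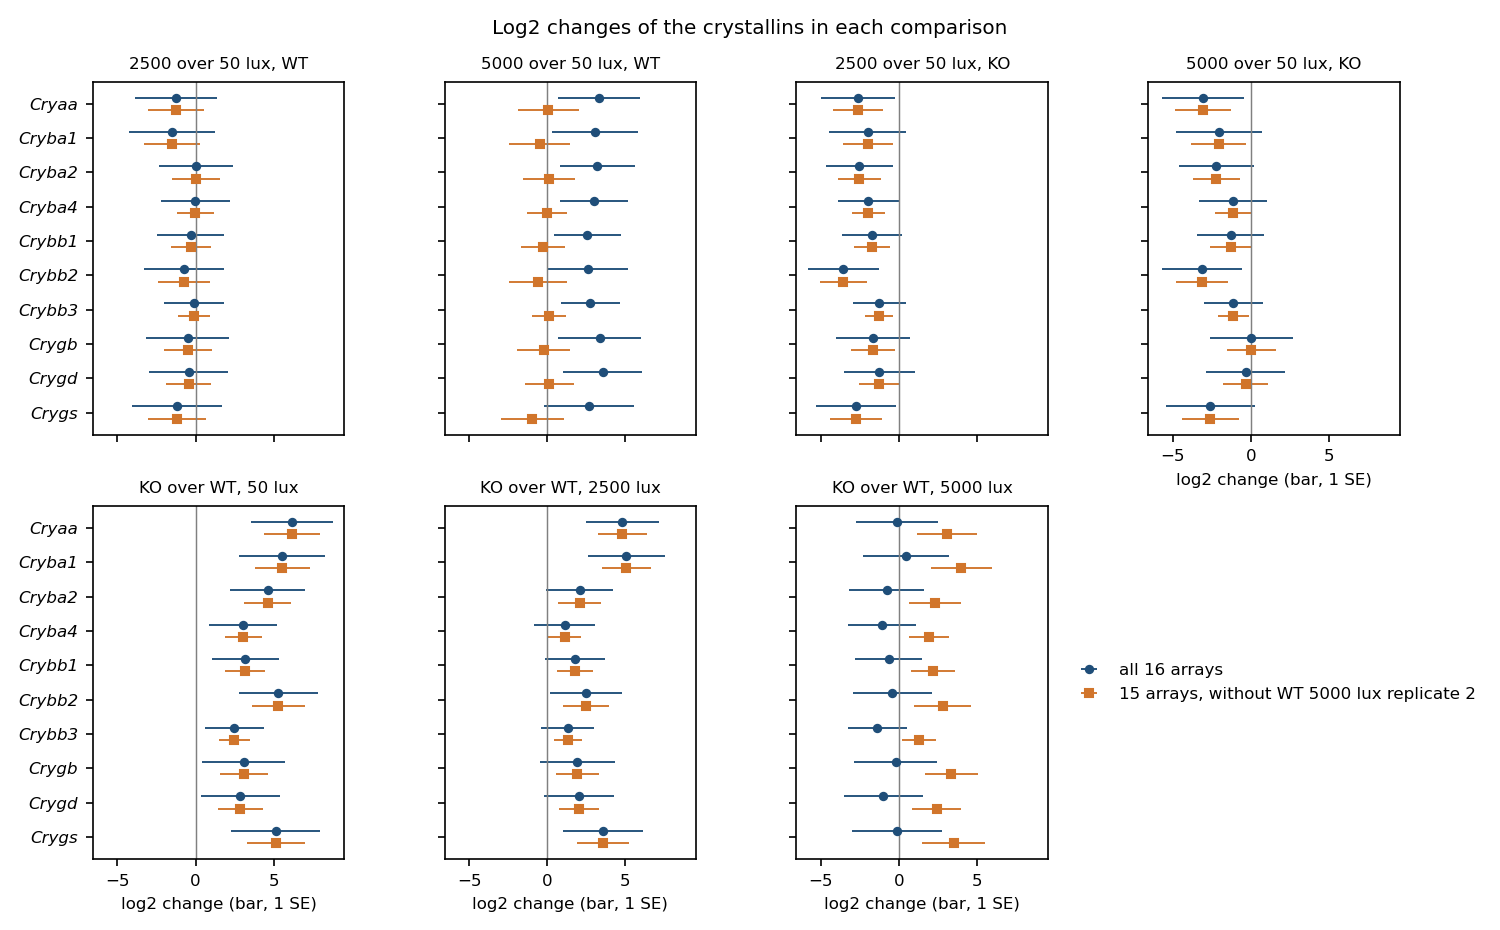
Log2 change of each crystallin (rows) in the 4 light comparisons (top) and the 3 genotype comparisons (bottom); points are limma estimates and bars 1 standard error, blue with all 16 arrays and orange without WT 5000 lux replicate 2. The orange and blue points part only in the 2 panels that use that array, 5000 over 50 lux in WT and KO over WT at 5000 lux, where the medians are -0.12 and 2.60 without that array and 3.02 and -0.55 with it, and the orange bars are the shorter ones in all panels.

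Of the other alpha, beta and gamma crystallins listed, 4 were on the array with a single-symbol probe set, and Cryab alone passed the filter. Cryab encodes alphaB-crystallin, the widely expressed small heat shock protein that retinal glia and pigment epithelium also make. It stood at log2 12.26, 11.07 and 11.11 in KO retinas at 50 lux, at 11.57, 12.64 and 11.53 at 2500 lux, and at 11.13 and 11.77 at 5000 lux. In WT retinas it stood at 9.67 and 9.54 at 50 lux, at 10.95, 11.68 and 11.57 at 2500 lux, and at 11.09, 14.24 and 11.23 at 5000 lux. It was above log2 9 on every array, and both WT arrays at 50 lux lay below the other 14. In WT retinas Cryab rose 5.99-fold at 5000 lux (log2 2.58, SE 0.74, adjusted p = 0.041 in limma), and was highest on replicate 2 of that dose, but 9 of 26 alternatives put the adjusted p above 0.05 (0.02 to 0.21 over all of them). Without that replicate its change was 1.56 (adjusted p = 0.045). At 2500 lux its change of 1.79 (SE 0.74) had an adjusted p of 0.15, and of 0.013 without WT 5000 lux replicate 2. In KO retinas its changes were 0.43 (SE 0.66, adjusted p = 0.69) and -0.03 (SE 0.74, adjusted p = 0.99). The difference at 50 lux, KO minus WT, was 1.87 (SE 0.74, adjusted p = 0.28). Its interaction at 5000 lux was -2.61 (SE 1.05, adjusted p = 0.59).

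Cryga, Crygf and Crygn, which were not tested, reached log2 12.12, 11.18 and 6.62 on WT 5000 lux replicate 2. On the other 15 arrays none of them exceeded 3.90, the value of Crygf on KO 5000 lux replicate 2. Other genes with crystallin in their name were measured too. Of 8 on the array, 5 were tested, and 2 rose in WT retinas at each dose and in KO retinas at 2500 lux, with 1 at 5000 lux. Crym encodes mu-crystallin, a cytosolic thyroid hormone binding protein, and in KO retinas it rose by 3.07 on the log2 scale at 2500 lux (SE 0.19, adjusted p = 4.3e-07) and by 2.53 at 5000 lux (SE 0.22, adjusted p = 1.7e-05). In WT retinas it rose by 2.45 (SE 0.22, adjusted p = 8e-06) and 2.70 (SE 0.22, adjusted p = 3.1e-06). WT 5000 lux replicate 2, at 11.52, lay within the range of the other bright-light arrays for Crym. Cryzl2, a quinone oxidoreductase-like gene, rose by 1.02 in KO retinas at 2500 lux (SE 0.25, adjusted p = 0.012) and by 2.12 and 2.43 in WT retinas (SE 0.28 each, adjusted p = 0.00029 and 8.8e-05).

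Lens fibre genes were measured as markers of lens tissue. Of 11 on the array, Tdrd7 and Caprin2, RNA granule and RNA-binding proteins that retina also expresses, were above log2 7 on every array. Caprin2 rose in all 4 light comparisons, by 1.27 and 1.39 in KO retinas and by 1.33 and 1.69 in WT retinas at 2500 and 5000 lux (limma, adjusted p from 0.00011 to 0.0011); 1 of 26 alternatives lost the call in KO retinas at 5000 lux (adjusted p = 0.11). Tdrd7 fell in all 4, by 0.69 and 0.56 in KO retinas and by 0.52 and 0.55 in WT retinas (limma, adjusted p from 0.00056 to 0.013). The call for Tdrd7 was lost in 2 of 26 alternatives in KO retinas at 5000 lux (adjusted p up to 0.21) and in 3 of 26 in WT retinas at each dose (up to 0.092 and 0.076). The other 9 were at or near the lowest value on most arrays. On WT 5000 lux replicate 2, 6 of those 9 exceeded log2 4. They were the intermediate filament gene Bfsp1 at 8.62, the water channel gene Mip at 8.23, the galectin-related Grifin at 7.88, the membrane protein gene Lim2 at 7.87, the gap junction gene Gja3 at 6.92 and the filament gene Bfsp2 at 5.63. The summed intensity of the 9 genes was 1352 there. It was 71.1 on KO 50 lux replicate 1, 61.4 on KO 2500 lux replicate 2, 50.0 on KO 5000 lux replicate 2 and 44.2 on KO 50 lux replicate 3. On the remaining 11 arrays it ran from 41.7 to 42.5, against 41.6 for 9 probe sets at the lowest value. Grifin, at 4.42 on KO 50 lux replicate 1, was the one of the 9 to exceed log2 4 on another array, and Dnase2b, Hsf4 and Birc7 were at most 3.20 on any array. On KO 50 lux replicate 2, where all 10 crystallins exceeded log2 4, the sum was 42.5. Of these 9 lens fibre markers, 6 thus exceeded log2 4 together with the crystallins on WT 5000 lux replicate 2. On the KO arrays with raised sums, every value but that of Grifin on KO 50 lux replicate 1 was below log2 4. The part of these markers in the comparisons was not tested.

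**Figure D4:**
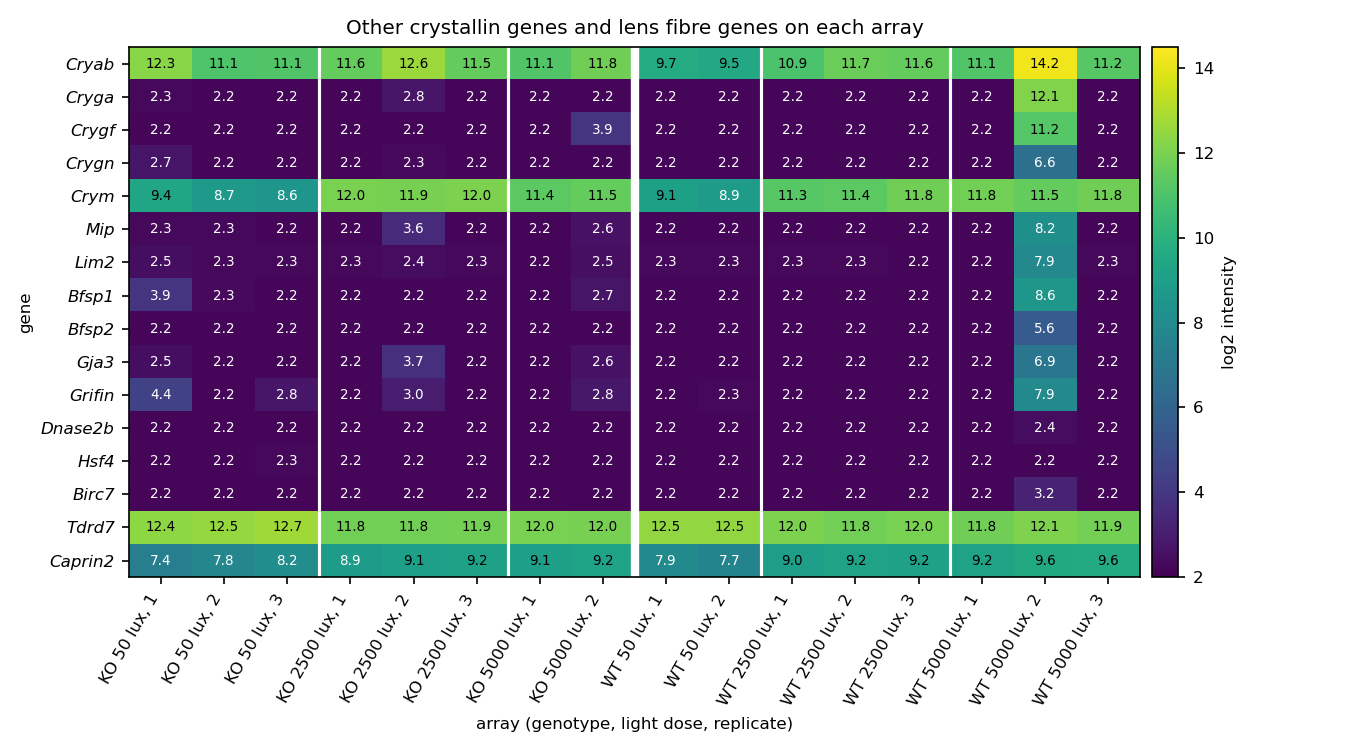
Log2 intensity of other crystallin genes and lens fibre genes (rows) on the 16 arrays (columns as in the plot of the 10 crystallins). Cryga, Crygf, Crygn, Mip, Lim2, Bfsp1, Bfsp2, Gja3 and Grifin are above log2 5 on WT 5000 lux replicate 2 alone, whereas Cryab, Crym, Tdrd7 and Caprin2 are bright on every array.

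Transcription factors of the lens were measured on the same arrays. Of 10 on the array 6 were tested, and Pax6, Maf, Mafg, Prox1, Six3 and Sox2 were above log2 7 on every array, as retinal neurons or glia also use them. Sox2 rose in KO retinas at 2500 lux by 0.85 (SE 0.14, adjusted p = 0.001). In WT retinas it rose by 0.66 at 2500 lux (SE 0.16, adjusted p = 0.018, lost in 4 of 26 alternatives) and by 0.56 at 5000 lux (SE 0.16, adjusted p = 0.043, lost in 14 of 26 alternatives). Prox1 rose in KO retinas at 2500 lux by 0.64 (SE 0.20, adjusted p = 0.039, lost in 10 of 26 alternatives). Foxe3, Pitx3, Sox1 and Gata3 did not exceed log2 2.22 on any array, WT 5000 lux replicate 2 included.

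Markers of other neighbouring tissues were set beside the crystallins. Of 9 iris, ciliary body and cornea genes, 2 were tested and none passed in any comparison. Their summed intensity ran from 158 to 416 on KO arrays and from 164 to 322 on WT arrays, and the corneal genes Kera, Lum and Krt14 stayed below log2 2.3 on all 16. Aldh3a1, a corneal and lens enzyme, was at 5.30 on WT 5000 lux replicate 2 and at the lowest value on the other 15. Of 12 pigment epithelium genes 9 were tested, and in WT retinas 7 fell at 5000 lux and 2 at 2500 lux. In KO retinas 1 rose and 1 fell at 2500 lux and none passed at 5000 lux. No pigment epithelium gene passed between KO and WT at any dose, with summed intensities of 6226 to 12269 in KO retinas and 9827 to 13753 in WT retinas at 50 lux. The part of these tissues in the crystallin levels was not tested.

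Outside these lists, 8 genes followed the mean of the 10 crystallins most closely over the 16 arrays, a list that rests on WT 5000 lux replicate 2. Without that array 7 of the 8 were replaced, with Fbxw22 shared, and Lipa, Ltbp3 and Mlst8 led at r of 0.836, 0.826 and 0.821. Leaving out KO 50 lux replicate 1 or WT 2500 lux replicate 3 replaced 4 of the 8, and leaving out any other array at most 3. Fbxw22, an F-box and WD repeat gene, had a Pearson's r of 0.847 (Spearman's rho 0.875), and 0.787 without WT 5000 lux replicate 2. It stood at 7.66 on that array, at 5.63 on KO 50 lux replicate 1 and at 5.30 on KO 2500 lux replicate 2, and between 4.21 and 4.83 on the other 13. Col4a2, a collagen of basement membranes such as the lens capsule, had an r of 0.815, and 0.714 without that array, over a range of 7.12 to 8.15. Arv1, Sfrp1, Nid1, Faap24, Vit and Ppp1r15a had r between 0.725 and 0.743. For Nid1, a basement membrane linker, r was 0.443 without WT 5000 lux replicate 2, and for the Wnt antagonist Sfrp1 it was 0.458. The arrays shared by all these genes make the correlations descriptions only. Grifin, from the lens fibre list, had an r of 0.830, and Cryab 0.742.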

How the data were processed

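RNA of neural retina from 16 samples, 1 Affymetrix array each, was labelled with biotin by the array maker's protocol, per the labels. The values are intensities that the authors deposited on a linear scale, 1 per probe set and array. GCRMA, which corrects background, normalises and summarises probes, is named per the submitters' processing notes, without a version or settings in the sources used here. A common lowest intensity of 4.62 (log2 2.21) fills 30.9% to 31.5% of each array, so differences between levels near it are compressed. Log2 of the deposited values was taken, and probe sets above log2 4 on at least 2 arrays (23320 of 45037) were tested. Of all probe sets, 34945 had 1 symbol, 932 several and 9160 none in the platform annotation, and the gene IDs of all 10 crystallins matched RefSeq. The number of arrays limits the precision.

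The model in limma 3.58.1 (R 4.3.3) held 1 mean for each of 6 groups over the 16 arrays, without an intensity trend (10 residual and 3.18 prior degrees of freedom), with 9 contrasts and Benjamini-Hochberg adjustment over all probe sets. Where a gene had several probe sets, the brightest by mean stood for it. The fit was tested on simulated data. Where every array of the lower group lay below log2 4, levels were raised to log2 4 and the fold given as a lower bound. The alternatives covered the filter, the lowest values, normalisation, spread estimate, array weights, the arrays in the fit, a replicate block and leaving out each array. Descriptions were computed in Python 3.11.15.

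The crystallins and the marker lists were chosen with earlier results of these data known. The named genes are Nxnl1, the 10 crystallins, the other crystallins, the lens fibre genes and the lens transcription factors, genes past the threshold in other lists, and the 8 genes outside the lists with the highest correlation with the crystallin mean. Replicate numbers in the labels were not taken to pair arrays. Sequences come from RefSeq (GRCm38.p6); a probe set's own position was not used.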

Additional observations from a re-analysis of the deposited data

How the results depend on the processing

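No crystallin passed in any of the 9 comparisons under any of 27 alternatives, 1 of which could not differ from the main result for these genes. Of 21 crystallin results given with their test, all 21 stayed on their side of the threshold under the other 26. All 21 kept their direction too, except that Crybb2 in WT retinas at 2500 lux had a change of 0.0 with values below log2 4 raised to that level. None of the 21 was a difference between KO and WT at 5000 lux. Without WT 5000 lux replicate 2 that difference turned from -0.16 to 3.07 for Cryaa. In WT retinas at 5000 lux the change of Cryba1 then turned from 3.03 to -0.48 and that of Crybb2 from 2.61 to -0.60. Those of Cryaa and Crygd stayed just positive there, at 0.05 and 0.12. The median change over the 10 genes moved most when WT 5000 lux replicate 2 was left out, to -0.12 for 5000 lux in WT retinas, 2.60 for KO minus WT at 5000 lux and -1.40 for the interaction at 5000 lux. With the replicate number as a block, which the labels do not support as a pairing, the median difference at 50 lux was 4.60, the change at 2500 lux in WT retinas turned to 0.25, and 0 crystallins passed (unadjusted p below 0.05 for 5 at 50 lux and 2 at 2500 lux between KO and WT, and for 2 interactions at 5000 lux). Deviations from group means correlated between same-numbered arrays at -0.24 to 0.69 (median 0.175, 21 of 36 pairs over 0.1). Between differently numbered arrays the median was -0.11, with 13 of 70 pairs over 0.1. Deviations cancel out within a group, so correlations of one kind partly fix those of the other. Their contrast is a description and cannot decide whether replicate numbers mark a pairing. The block gave 4613 probe sets called in KO retinas at 5000 lux (2663 without it) and 27 for the interaction at 2500 lux (11 without it).

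The counts of all probe sets called moved more. With only the arrays of the groups compared they were 1275 for WT retinas at 2500 lux (main value 2744), 182 for KO retinas at 5000 lux, 1, 4 and 0 for KO against WT at 50, 2500 and 5000 lux (76, 22 and 1), and 6 and 1 for the interactions at 2500 and 5000 lux (11 and 6). With array weights they were 5512 for WT retinas at 5000 lux (2447), 6791 and 730 for KO retinas at 2500 and 5000 lux (4501 and 2663), 248 and 39 for KO against WT at 50 and 2500 lux, and 22 for the interaction at 2500 lux. With no filter they were 1526 for KO retinas at 5000 lux, 141 and 3 for KO against WT at 50 and 5000 lux, and 47 and 39 for the interactions. The stricter filter gave 5 for KO against WT at 2500 lux, and an intensity trend gave 7 for the interaction at 2500 lux. Leaving out 1 array at a time gave 2918 to 4751 in KO retinas at 2500 lux and 575 to 4411 at 5000 lux, 1127 to 3001 and 1025 to 2679 in WT retinas, 9 to 363, 2 to 86 and 1 to 9 for KO against WT at the rising doses, and 3 to 15 and 4 to 14 for the interactions.

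Of 27 results on other genes, 12 changed their call or sign in at least 1 alternative. The change of Cryab in KO retinas at 5000 lux turned to 0.013 with quantile normalisation and 0.22 with array weights, and ran from -0.35 to 0.36 with 1 array left out, 0.36 without KO 50 lux replicate 1 and 0.29 without KO 5000 lux replicate 1. The lower level of Nxnl1 in KO retinas at 5000 lux had an adjusted p of 1.0 when only those 5 arrays were fitted. The cause of these shifts was not tested. Groups of 2 or 3 arrays with a within-group spread of 2.39 to 3.60 limit what the crystallin comparisons can detect.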
